A study of Homo sapiens with 6 samples.

Results

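The genes described here encode the acidifying pump of the lysosome, the V-ATPase, and the proteases that work in the acid it makes, the cathepsins, together with the membrane glycoproteins LAMP1 and LAMP2 and the transcription factors TFEB and TFE3. Members were taken by name. A row of the count table was a member if its Ensembl identifier maps to a protein-coding gene whose symbol begins with ATP6V0 or ATP6V1, is ATP6AP1 or ATP6AP2, is CTS followed by a single letter, or is LAMP1, LAMP2, TFEB or TFE3. This gave 45 of the 63186 rows: 13 subunits of the V1 sector, 9 subunits of the V0 sector, 2 accessory subunits, 15 cathepsins, 2 LAMP genes, 2 transcription factors, and 2 genes that match the name but encode no subunit (ATP6V1FNB, a neighbour of ATP6V1F, and the readthrough gene ATP6V1G2-DDX39B). The name also matched 21 rows that are not protein-coding, mostly processed pseudogenes, which were not members. The rule itself uses names only, but the members were chosen with earlier results of these data known.

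The V-ATPase is a rotary pump. Its V1 sector in the cytosol splits ATP and turns a central stalk, and the V0 sector in the membrane carries protons into the lumen. Several subunits exist as isoforms made from separate genes, which differ between tissues and organelles. Cathepsins are made as inactive precursors and mature in the acid lumen of endosomes and lysosomes. TFEB and TFE3 belong to the MiT/TFE family of basic helix-loop-helix factors, which bind the CLEAR element, a palindrome around CACGTG, in many genes of this organelle. Their activity is set largely by phosphorylation and by moving between cytosol and nucleus, which RNA levels do not show.

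The study compared 3 cultures of RBE cells transfected with siRNA against CHAF1A (si-CHAF1A) with 3 cultures transfected with a control siRNA (si-Ctrl). RBE is an established human cell line of bile duct cancer inside the liver (intrahepatic cholangiocarcinoma). CHAF1A encodes the biggest protein of the CAF-1 complex, which places histones on newly copied DNA. Both groups received Lipofectamine 3000 and had their RNA taken at 48 h. The number of different siRNAs used is not stated in the labels.

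The targeted gene was read first: CHAF1A had 11.1, 12.9 and 11.2 CPM after its siRNA, against 51.5, 59.8 and 51.0 CPM after the control siRNA (CPM, counts per library total times 1000000, with the totals corrected by edgeR's TMM factors). Its log2 fold change was -2.21 (edgeR adjusted p = 2.6e-10). Library totals ran from 15643381 to 20918997 counts. The library si-Ctrl 2 stood apart from its group: its counts differed from those of the other si-Ctrl libraries with a chi-square per degree of freedom of 13.5 and 13.7, against 2.30 to 3.68 in the other pairs of libraries within a group. It held the highest control value of 22 of the 36 tested members. Members whose call changes without it are given with both values. All 8 markers of biliary epithelium were detected, at a summed 5360 to 5882 CPM in si-CHAF1A and 4154 to 4817 CPM in si-Ctrl libraries. Of the markers of other cells, 5 of 6 for hepatocytes (all but SERPINA1), 7 of 8 for leukocytes and 3 of 6 for fibroblasts were under 1 CPM in every library. In RNA from whole cultures, fewer cells of a kind and less RNA per cell cannot be told apart.

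Of the 45 members, 36 passed the filter on low counts and were tested. Against si-Ctrl, 10 were higher and 9 were lower in si-CHAF1A at an adjusted p under 0.05 (edgeR's quasi-likelihood test with Benjamini-Hochberg adjustment over all 15911 tested genes), and 17 were not called. Over all tested genes the test called 18.5% higher and 19.3% lower, and the members' shares were 27.8% and 25.0%. The median log2 fold change was 0.05 over the tested members and 0.00 over all tested genes. Counts by class went in different directions, and the difference between classes was not tested. Of 12 tested cathepsins 8 rose and 1 fell, with a median log2 fold change of 0.34, whereas of 20 tested V-ATPase subunits, accessory subunits included, 1 rose and 8 fell, with a median of -0.12. The changes were small: CTSF was the only called member whose levels differed by at least 2-fold. All 3 si-CHAF1A libraries lay above all 3 si-Ctrl libraries in 11 tested members and below them in 11, while each of these arrangements was found in 24.1% of all tested genes.

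**Figure D1:**
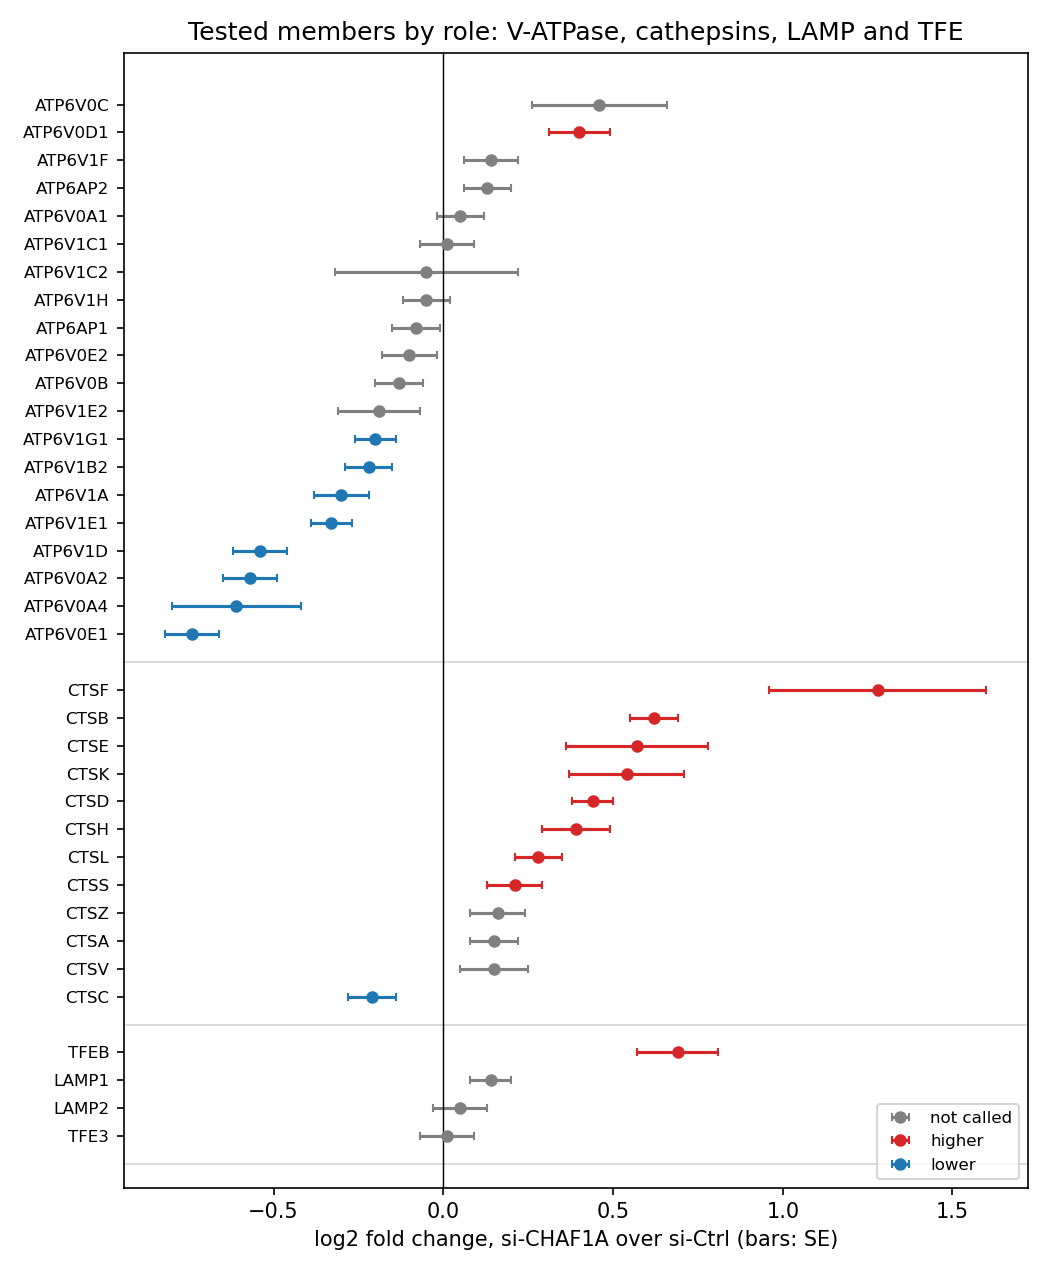
Log2 fold change of each tested member, si-CHAF1A over si-Ctrl, with its standard error as a bar, grouped by class and coloured by call. Cathepsins lie mostly to the right of 0, with a median of 0.34, and V1 subunits mostly to the left, with a median of -0.19.

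The size of a class as a whole was described by summing its members' CPM in each library. The 15 cathepsins summed to 1435, 1370.4 and 1341 CPM in si-CHAF1A libraries, against 1087, 1216 and 1129.8 CPM in si-Ctrl libraries, a ratio of means of 1.21. Most of this difference lay in CTSB and CTSD. CTSB averaged 276 CPM in si-CHAF1A and 179 CPM in si-Ctrl, and CTSD 251 and 185 CPM. The cathepsin sums averaged 1382 and 1144 CPM. The 13 V1 genes summed to 701, 707 and 721 CPM in si-CHAF1A, against 817, 796 and 814 CPM in si-Ctrl, a ratio of 0.877. The 9 V0 genes summed to 535, 509 and 506 CPM in si-CHAF1A, against 558, 626 and 579 CPM in si-Ctrl, a ratio of 0.880. The V0 sums averaged 517 CPM in si-CHAF1A and 587 CPM in si-Ctrl. Nearly all of the V0 difference lay in ATP6V0E1, which averaged 105 CPM in si-CHAF1A and 175 CPM in si-Ctrl. Changes of the other V0 genes went both ways, so the V0 sum does not show a fall of the sector as a whole. In each of these sums the groups did not overlap. The sums weight abundant genes most and were not tested.

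**Figure D2:**
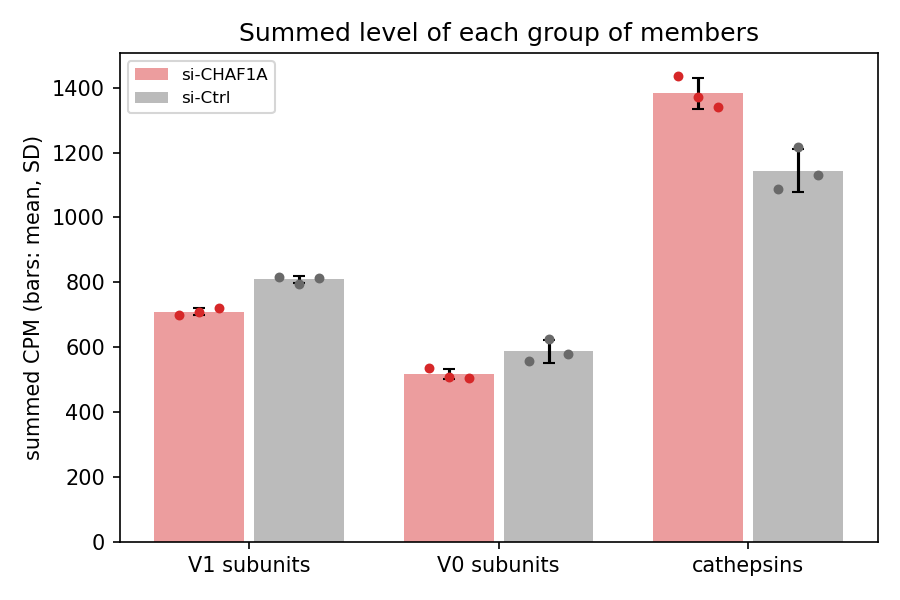
Summed CPM of the V1, V0 and cathepsin genes, 1 point per library, si-CHAF1A left of si-Ctrl in each class, with the mean of each group. Cathepsin sums average 1382 CPM in si-CHAF1A and 1144 CPM in si-Ctrl, and V1 sums 709.7 and 809 CPM.

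TFEB (ENSG00000112561, chromosome 6, 41683978 to 41736259, minus strand), the factor that activates many lysosomal genes, rose. Positions of genes are those of GENCODE 29 on GRCh38. It was at 23.5, 22.1 and 21.9 CPM in si-CHAF1A, against 12.3, 16.9 and 12.5 CPM in si-Ctrl, so that every si-CHAF1A library lay above every si-Ctrl library. Its log2 fold change was 0.69 (SE 0.12, edgeR adjusted p = 0.000297), and 0.85 without si-Ctrl 2. TFE3, its close relative, was at 101.5, 97.0 and 96.4 CPM in si-CHAF1A, against 94.9, 109 and 87.6 CPM in si-Ctrl, with overlapping groups and a log2 fold change of 0.01 (SE 0.08, adjusted p = 0.907). On the per-length scale, TFE3 stood at 75.7 ± 4.49 TPM and TFEB at 8.25 ± 0.978 TPM in si-Ctrl (SD, n = 3), so TFE3 was the more abundant transcript. The log2 ratio of TFEB to TFE3 counts was -2.13 ± 0.02 in si-CHAF1A and -2.82 ± 0.12 in si-Ctrl (SD, n = 3 each), a difference of 0.69. The exact two-sided permutation test gave p = 0.10, the smallest value that 3 against 3 libraries allow, and 0.175 after adjustment over the 7 pairs of related members compared.

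The V1 sector had 10 tested genes of 13, of which 5 fell (50%) and 0 rose. Over all tested genes, 19.3% were called lower and 18.5% higher. ATP6V1D (ENSG00000100554, chromosome 14, 67294371 to 67360265, minus strand), a subunit of the central stalk, fell most, to 47.5, 48.6 and 52.2 CPM in si-CHAF1A, against 78.4, 69.4 and 67.6 CPM in si-Ctrl. The log2 fold change was -0.54 (SE 0.08, edgeR adjusted p = 6.3e-05). On the opposite strand, EIF2S1 overlaps 6.33% of its exon bases, and EIF2S1 also had fewer reads, 1410, 1481 and 1624 counts in si-CHAF1A against 2064, 2513 and 2356 counts in si-Ctrl. The sources used here give no strand setting for the counting, and the part of shared reads in the ATP6V1D value was not tested.

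ATP6V1E1, which builds the peripheral stalk, was at 90.0, 91.3 and 91.9 CPM in si-CHAF1A, against 113, 120.1 and 111 CPM in si-Ctrl, with a log2 fold change of -0.33 (SE 0.06, edgeR adjusted p = 0.000807). ATP6V1A, the subunit that splits ATP, was at 106, 100 and 110.1 CPM in si-CHAF1A, against 137, 116 and 137 CPM in si-Ctrl. Its log2 fold change was -0.30 (SE 0.08, adjusted p = 0.00523). In both genes the groups did not overlap. ATP6V1B2, the B subunit found in most tissues and the partner of A in the catalytic ring, was at 72.2, 71.6 and 72.0 CPM in si-CHAF1A, against 80.0, 87.6 and 82.8 CPM in si-Ctrl. ATP6V1G1, a further part of the peripheral stalk, was at 120.2, 126.5 and 126 CPM in si-CHAF1A, against 146, 142 and 141 CPM in si-Ctrl. The log2 fold changes were smaller, -0.22 (SE 0.07, edgeR adjusted p = 0.0184) and -0.20 (SE 0.06, adjusted p = 0.0174), with groups that did not overlap. The call of ATP6V1B2 was lost without any single si-CHAF1A library (adjusted p = 0.0618, 0.0723 and 0.0711). The call of ATP6V1G1 was lost without any single si-CHAF1A library (adjusted p = 0.0934, 0.0517 and 0.0600) and without si-Ctrl 1 (0.0543). Without any single si-CHAF1A library, 3 V1 genes in place of 5 were called lower.

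The other 5 tested V1 genes were not called. ATP6V1H, a regulatory subunit, and ATP6V1C1, which links the stalks, had log2 fold changes of -0.05 and 0.01. ATP6V1C2 and ATP6V1E2, isoforms with narrower tissue ranges, had -0.05 and -0.19. The log2 count ratio of ATP6V1E1 to ATP6V1E2 differed by -0.16 between the groups (exact permutation p = 0.10, adjusted 0.175), and that of ATP6V1C1 to ATP6V1C2 by 0.08 (exact permutation p = 0.60). ATP6V1F, of the central stalk, had 0.14 (adjusted p = 0.199), and 0.22 (adjusted p = 0.00673) without si-Ctrl 2, where it was called higher. ATP6V1B1, the B isoform of proton-secreting epithelial cells, had too few reads to test, 0.115 to 0.449 CPM in si-CHAF1A and 0.253 to 0.287 CPM in si-Ctrl. VAX2, on the same strand, covers 62.4% of the exon bases of ATP6V1B1 and held 346 counts over all libraries. Genes on the opposite strand, PDIA6 with 31630 counts among them, cover 29.9% of the exon bases of ATP6V1C2. The part of shared reads in the values of ATP6V1B1 and ATP6V1C2 was not tested. ATP6V1G2, known from neurons, and ATP6V1G3 had 0 counts in every library, which allows up to 3 counts or 0.151 to 0.192 CPM per library. ATP6V1G2 overlaps the readthrough gene ATP6V1G2-DDX39B, also at 0 counts, and DDX39B held 8 counts in all libraries together.

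**Figure D3:**
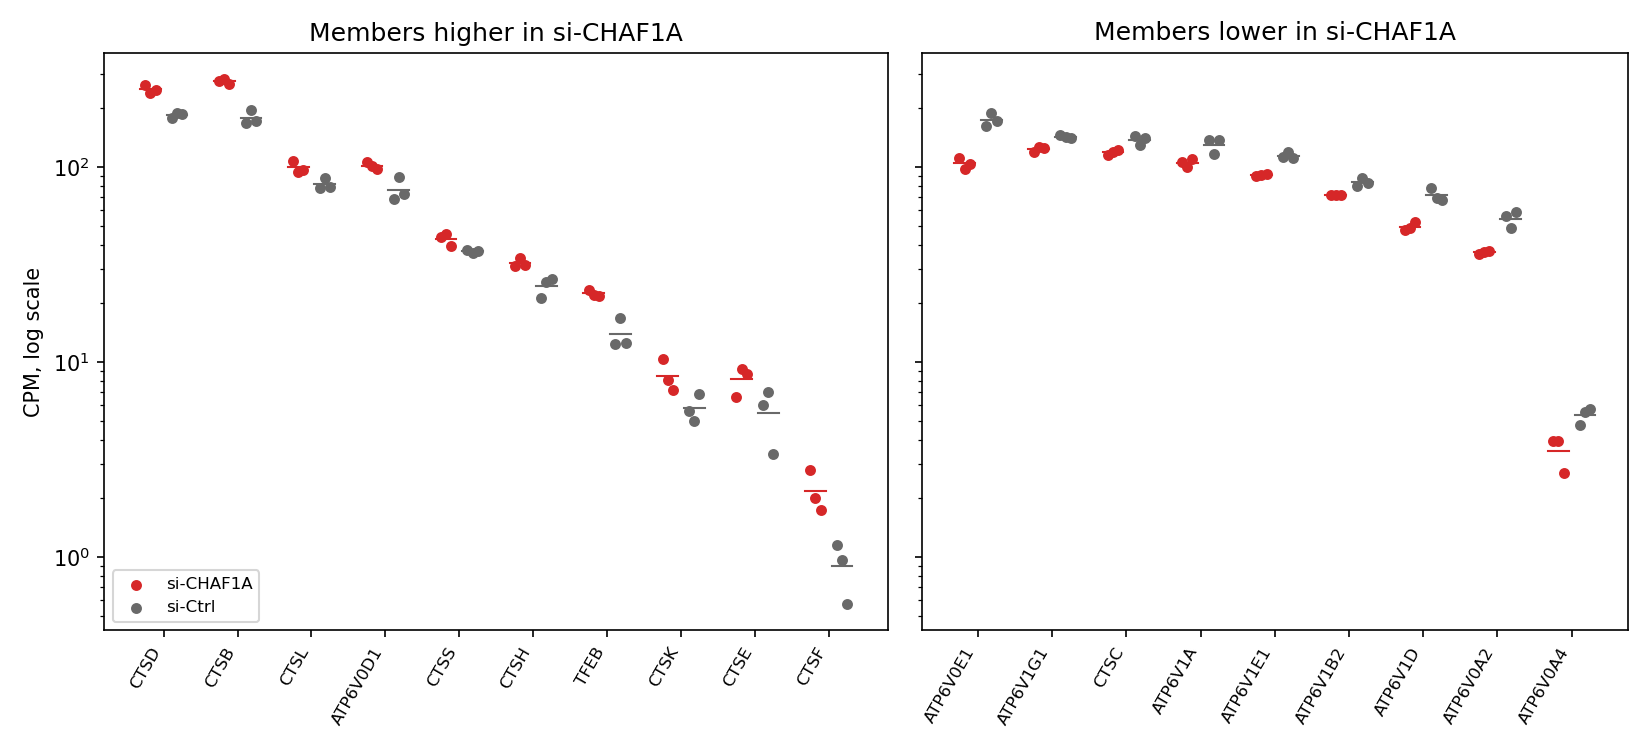
Levels of the 19 called members in each library, based on CPM, with si-CHAF1A libraries left of si-Ctrl libraries. CTSE, at 6.60 CPM in si-CHAF1A 1 and 7.02 CPM in si-Ctrl 2, is the called member whose groups overlap.

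In the V0 sector, 8 of 9 genes were tested, of which 1 rose (12.5%) and 3 fell (37.5%). The shares over all tested genes were 18.5% higher and 19.3% lower, and with 8 genes the counts are small. ATP6V0E1 (ENSG00000113732, chromosome 5, 172983757 to 173035445, plus strand), the small e subunit, had the lowest p of all members. It fell to 112, 98.0 and 104 CPM in si-CHAF1A, against 162, 189.7 and 172 CPM in si-Ctrl, and the groups lay far apart. The log2 fold change was -0.74 (SE 0.08, edgeR adjusted p = 1.8e-06), a level 0.599 times that of si-Ctrl. Its isoform ATP6V0E2 was at 50.1, 49.6 and 47.3 CPM in si-CHAF1A, against 50.1, 56.6 and 50.8 CPM in si-Ctrl, and was not called (-0.10, adjusted p = 0.322). The log2 count ratio of ATP6V0E1 to ATP6V0E2 was 1.09 ± 0.09 in si-CHAF1A and 1.73 ± 0.04 in si-Ctrl (SD, n = 3 each). The difference of -0.64 separated the groups (exact permutation p = 0.10, adjusted 0.175), and it lay between -0.67 and -0.59 with any single library left out.

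The a subunit forms the channel through which protons pass and exists in several isoforms. ATP6V0A2, the isoform known best from the Golgi and early endosomes, fell to 36.0, 36.8 and 37.0 CPM in si-CHAF1A, against 56.0, 48.6 and 58.7 CPM in si-Ctrl. Its log2 fold change was -0.57 (SE 0.08, edgeR adjusted p = 6.5e-05). ATP6V0A4, the isoform of kidney intercalated cells, was low, at 3.92, 3.91 and 2.69 CPM in si-CHAF1A and 4.73, 5.51 and 5.73 CPM in si-Ctrl. Its log2 fold change of -0.61 (SE 0.19, adjusted p = 0.0192) was no longer called without si-CHAF1A 3 (-0.45, adjusted p = 0.101) or without si-Ctrl 3 (-0.56, adjusted p = 0.0634). ATP6V0A1, the isoform broadly found and known from lysosomes and nerve terminals, was at 119.7, 113 and 109.9 CPM in si-CHAF1A, against 109.5, 117 and 105 CPM in si-Ctrl, and was not called (0.05, adjusted p = 0.626). The log2 count ratio of ATP6V0A1 to ATP6V0A2 was 1.64 ± 0.08 in si-CHAF1A and 1.02 ± 0.22 in si-Ctrl, with no overlap. The difference was 0.62 (exact permutation p = 0.10, adjusted 0.175). Per length, the same log2 ratio was 2.45 in si-CHAF1A and 1.83 in si-Ctrl, so ATP6V0A1 was the more abundant isoform of this pair in both groups. TCIRG1 encodes a further a isoform but lies outside the name rule, so the V0 counts and sums leave it out. It was at 50.1, 45.7 and 48.0 CPM in si-CHAF1A, against 44.7, 56.9 and 46.7 CPM in si-Ctrl, and was not called (-0.05, edgeR adjusted p = 0.719).

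ATP6V0D1 (ENSG00000159720, chromosome 16, 67438014 to 67481237, minus strand), which couples the stalk to the membrane ring, was the only V-ATPase gene called higher. It was at 106, 101 and 97.4 CPM in si-CHAF1A, against 68.6, 88.5 and 72.8 CPM in si-Ctrl, and the groups did not overlap. The log2 fold change was 0.40 (SE 0.09, edgeR adjusted p = 0.00174). ATP6V0D2, the d isoform of osteoclasts and kidney, had too few reads to test, 0.119 to 0.337 CPM in si-CHAF1A and 0.172 to 0.455 CPM in si-Ctrl. The proteolipid subunits of the ring were not called. ATP6V0B was at 93.6 to 98.1 CPM in si-CHAF1A and 99.1 to 114 CPM in si-Ctrl (-0.13, adjusted p = 0.167). ATP6V0C was at 10.9, 12.9 and 8.92 CPM in si-CHAF1A, against 7.68, 5.51 and 10.7 CPM in si-Ctrl (0.46, adjusted p = 0.0867), and its value moved with single libraries. It was 0.24 (adjusted p = 0.221) without si-Ctrl 2 and 0.32 (adjusted p = 0.322) without si-CHAF1A 2, and it was called higher without si-Ctrl 3 (0.73, adjusted p = 0.00620) and without the filter on low counts (0.45, adjusted p = 0.0119). Its level per length in si-Ctrl, 14.4 TPM, was well under the 122 TPM of ATP6V0B. Other annotated genes on the same strand cover 72.1% of the exon bases of ATP6V0C, and those genes held 0 counts. The part of shared reads in its low level was not tested.

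The accessory subunits, which assemble with V0 and are cut in the secretory pathway, were not called. ATP6AP2, also called the prorenin receptor, was at 74.8, 73.3 and 71.1 CPM in si-CHAF1A, against 68.4, 65.1 and 67.3 CPM in si-Ctrl (0.13, adjusted p = 0.149). ATP6AP1 was at 219 to 229 CPM in si-CHAF1A and 216 to 261 CPM in si-Ctrl (-0.08, adjusted p = 0.434). The groups overlapped for ATP6AP1 and lay apart for ATP6AP2.

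Among the cathepsins, the abundant lysosomal proteases CTSB and CTSD rose. CTSB (ENSG00000164733, chromosome 8, 11842524 to 11869448, minus strand), a cysteine protease, was at 276.5, 282 and 268 CPM in si-CHAF1A, against 169, 197 and 172 CPM in si-Ctrl, with a log2 fold change of 0.62 (SE 0.07, edgeR adjusted p = 4.6e-06). CTSD (ENSG00000117984, chromosome 11, 1752752 to 1764573, minus strand), the main aspartic protease of the lysosome, was at 264.5, 240.0 and 248 CPM in si-CHAF1A, against 179, 189.6 and 186 CPM in si-Ctrl, with 0.44 (SE 0.06, adjusted p = 5.8e-05). In both genes the groups lay apart. A gene on the same strand, AC068580.4, covers 41.7% of the exon bases of CTSD, and it held 86 counts over all libraries.

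CTSH, an aminopeptidase, was at 31.1, 34.2 and 31.4 CPM in si-CHAF1A, against 21.3, 25.6 and 26.6 CPM in si-Ctrl (0.39, SE 0.10, edgeR adjusted p = 0.00467). CTSL, an endopeptidase of broad range, was at 107.5, 94.9 and 96.4 CPM in si-CHAF1A, against 78.4, 88.1 and 79.0 CPM in si-Ctrl (0.28, SE 0.07, adjusted p = 0.00724). CTSL was no longer called without si-CHAF1A 1 (0.22, adjusted p = 0.0635). CTSF (ENSG00000174080, chromosome 11, 66563463 to 66568841, minus strand) had the largest log2 fold change of the tested members at a low level, 2.79, 2.01 and 1.74 CPM in si-CHAF1A, against 1.15, 0.960 and 0.573 CPM in si-Ctrl. Its log2 fold change was 1.28 (SE 0.32, adjusted p = 0.00549), a level 2.43 times that of si-Ctrl.

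Another 3 cathepsins rose with less support. CTSK, the collagen-cutting protease known from osteoclasts, was at 10.3, 8.04 and 7.18 CPM in si-CHAF1A, against 5.63, 5.00 and 6.88 CPM in si-Ctrl (0.54, SE 0.17, edgeR adjusted p = 0.0184), and was lost without si-CHAF1A 1 (0.38, adjusted p = 0.126). Fibroblasts also make CTSK, and the 6 fibroblast markers summed to 16.0 to 36.2 CPM in si-CHAF1A and 8.66 to 11.8 CPM in si-Ctrl. PDGFRB rose (2.04, SE 0.23, adjusted p = 4.6e-06), and COL1A1 was not called (0.87, adjusted p = 0.0717). COL1A2 had 92, 3 and 1 counts in si-CHAF1A and 1, 0 and 0 counts in si-Ctrl, so that nearly all of its reads were in si-CHAF1A 1. COL3A1 had 8, 1 and 1 counts in si-CHAF1A and 1, 6 and 0 counts in si-Ctrl, with overlapping groups. DCN had 6, 0 and 1 counts and LUM 2, 4 and 0 counts in si-CHAF1A, and both had 0 counts in si-Ctrl. The part of these genes' source in the CTSK value was not tested. The other 4 osteoclast markers were under 1 CPM in every library. CTSS, its neighbour on chromosome 1 and a protease of antigen-presenting cells, was at 44.0, 45.4 and 39.3 CPM in si-CHAF1A, against 37.6, 36.3 and 37.0 CPM in si-Ctrl (0.21, SE 0.08, adjusted p = 0.0476). Its call was lost without si-CHAF1A 1 (adjusted p = 0.156), si-CHAF1A 2 (0.192), si-Ctrl 1 (0.0807) or si-Ctrl 3 (0.112). It was also lost under DESeq2 (0.0639) and without the filter on low counts (0.106). Leukocyte markers summed to 1.29 to 2.07 CPM in si-CHAF1A and 2.05 to 2.73 CPM in si-Ctrl. CTSE, an aspartic protease of endosomes and of gastric epithelium, was at 6.60, 9.25 and 8.64 CPM in si-CHAF1A, against 6.01, 7.02 and 3.38 CPM in si-Ctrl (0.57, SE 0.21, adjusted p = 0.0459). Its groups overlapped, and its call was lost without si-CHAF1A 2 (adjusted p = 0.186), si-CHAF1A 3 (0.138), si-Ctrl 1 (0.0632) or si-Ctrl 3 (0.194). Without si-CHAF1A 1, 5 cathepsins in place of 8 were called higher.

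CTSC, the dipeptidyl peptidase that activates granule proteases of immune cells, was the cathepsin that fell. It was at 116, 120.1 and 122 CPM in si-CHAF1A, against 145, 129 and 141 CPM in si-Ctrl, with no overlap (-0.21, SE 0.07, edgeR adjusted p = 0.0217). The call was lost when any library other than si-Ctrl 2 was left out, with adjusted p between 0.0584 and 0.101. Not called were CTSA, the carboxypeptidase that also protects lysosomal sialidase, CTSZ, a carboxypeptidase, and CTSV, a close relative of CTSL. Their log2 fold changes were 0.15 (adjusted p = 0.121), 0.16 (adjusted p = 0.102) and 0.15 (adjusted p = 0.286). Without si-Ctrl 2, CTSA and CTSZ were both called higher, each at 0.23 (adjusted p = 1.3e-05 and 0.000138). CTSG of neutrophils and CTSO had 0 counts in every library. The annotation and the rule for multimapping reads behind the counts are not known here, so a listed 0 is not read as no expression. CTSW of lymphocytes had 0.224 to 0.804 CPM in si-CHAF1A and 0.0640 to 0.573 CPM in si-Ctrl and was not tested. ATP6V1FNB, at no more than 0.713 CPM, was not tested either.

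LAMP1 and LAMP2 coat the inner face of the lysosomal membrane. LAMP1 was at 622, 599 and 579.9 CPM in si-CHAF1A, against 521, 584 and 524 CPM in si-Ctrl, with overlapping groups (0.14, SE 0.06, edgeR adjusted p = 0.0876). It was called higher without si-Ctrl 2 (0.19, adjusted p = 3.7e-05). LAMP2 was at 216, 234 and 235 CPM in si-CHAF1A, against 233, 195 and 234 CPM in si-Ctrl (0.05, SE 0.08, adjusted p = 0.641), and -0.04 (adjusted p = 0.518) without si-Ctrl 2. The members with the highest level per length in si-Ctrl were LAMP1 at 536 ± 0.909 TPM, CTSZ at 361 ± 13.2 TPM and ATP6V1G1 at 353.5 ± 23.9 TPM (SD, n = 3). CTSZ and ATP6V1G1 did not differ beyond their spread. The log2 count ratio of LAMP1 to LAMP2 differed by 0.09 between the groups (exact permutation p = 0.60), and that of CTSL to CTSV by 0.14 (exact permutation p = 0.20, adjusted 0.28).

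**Figure D4:**
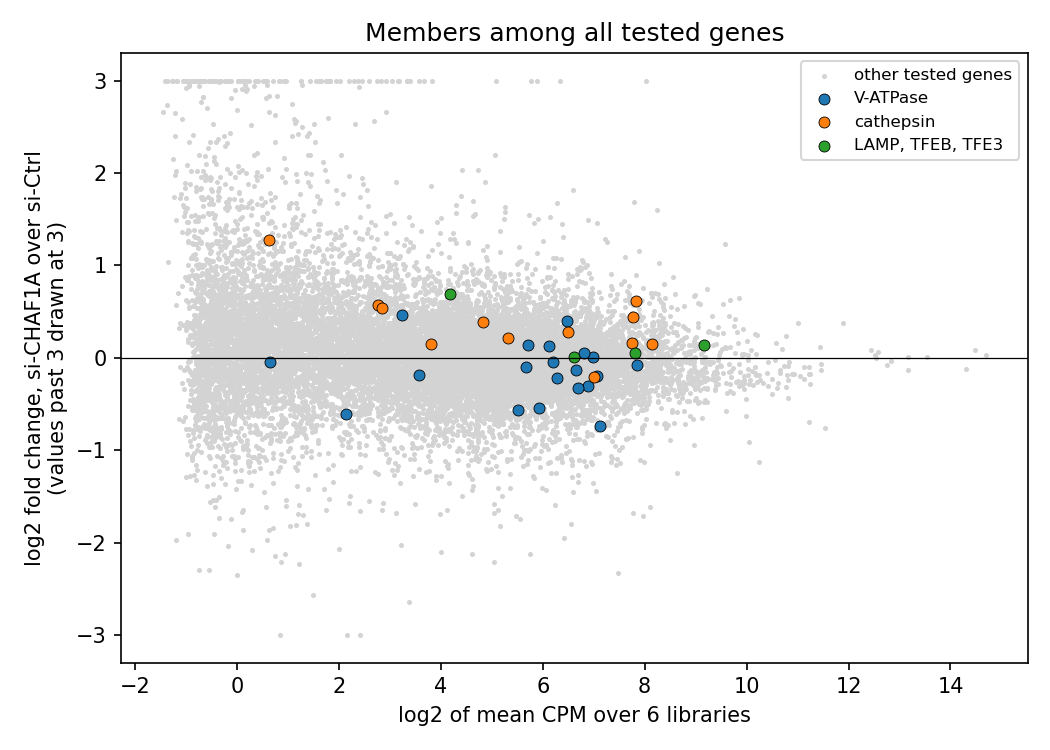
Log2 fold change against mean log2 CPM for all tested genes in grey and for the tested members in colour by class, with values past 3 drawn at the edge of the axis. The members span log2 fold changes from -0.74 (ATP6V0E1) to 1.28 (CTSF).

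CACGTG lies within the element that TFEB and TFE3 bind in many genes of this organelle. Promoters were searched for it as a description of the sequence, with no test, and binding was not measured. RefSeq promoter windows of GRCh38.p14, 250 bases before to 50 bases after a RefSeq start site, were matched for 31 of the 45 members. This start can lie inside the gene positions given above. The CTSD window shown, for example, lies at 1763957 to 1763986, within the gene at 1752752 to 1764573. CACGTG, which reads the same on both strands, was present in 8 of these 31 (25.8%), against 9.82% of 10479 tested protein-coding genes and 7.43% of all 27305 promoters in the table. The longer word TCACGTGA, which contains CACGTG and is the core of the CLEAR element, was in 4 of 31 (12.9%), against 1.94% of tested genes and 1.04% of all promoters. Windows of 30 bases are shown for these 8 genes, 5′ to 3′ on the strand of the gene, with the CACGTG in capitals, and where a promoter holds several, the one nearest to the start is shown. The first 3 belong to members called higher, the next to a member called lower and the last 4 to members not called.
ATP6V0D1, chr16:67481199-67481228, minus strand: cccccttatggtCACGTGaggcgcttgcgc
CTSD, chr11:1763957-1763986, minus strand: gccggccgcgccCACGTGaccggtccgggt
CTSF, chr11:66568640-66568669, minus strand: ccctgcgcgcccCACGTGcctcctgtaaac
ATP6V1G1, chr9:114587699-114587728, plus strand: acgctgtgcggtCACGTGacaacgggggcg
LAMP1, chr13:113297226-113297255, plus strand: cgcggcgcagctCACGTGacaagcgctgcc
CTSA, chr20:45891298-45891327, plus strand: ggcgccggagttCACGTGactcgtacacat
ATP6V0B, chr1:43974909-43974938, plus strand: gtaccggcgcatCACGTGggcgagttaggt
ATP6V0E2, chr7:149872884-149872913, plus strand: tcccttctgcatCACGTGgggactgcgcct

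Promoters with the word were found in every class of call. CACGTG was in 3 of 7 promoters of members called higher, 1 of 6 of members called lower and 4 of 13 of tested members not called. No promoter was matched for CTSB, CTSK and CTSS, called higher, or for ATP6V0E1, ATP6V1A and ATP6V1B2, called lower. ATP6V0D1 and ATP6V1G1 both held the longer TCACGTGA, with the first base of its CACGTG at -59 and -58 from the start, and ATP6V0D1 rose while ATP6V1G1 fell. LAMP1 held CACGTG 6 times in its window, the most of any member with a matched promoter, and was not called. The 250 bases before its start are shown because 5 of the 6 lie there, in capitals.
LAMP1, chr13:113296989-113297238, plus strand: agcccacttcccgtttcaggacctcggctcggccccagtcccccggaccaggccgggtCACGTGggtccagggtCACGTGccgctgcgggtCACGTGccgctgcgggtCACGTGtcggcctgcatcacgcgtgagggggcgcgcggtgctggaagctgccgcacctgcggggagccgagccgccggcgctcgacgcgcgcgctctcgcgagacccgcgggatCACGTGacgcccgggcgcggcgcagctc

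Other genes of the organelle were taken from lists of known lysosomal genes outside the name rule. Their counts stand against the 18.5% higher and 19.3% lower of all tested genes. Of 33 tested lysosomal hydrolases and their activators, 16 rose (48.5%) and 2 fell (6.06%), with a median log2 fold change of 0.21. PPT1, which removes fatty acids from proteins, was at 115, 114.5 and 114 CPM in si-CHAF1A, against 78.2, 72.8 and 70.5 CPM in si-Ctrl (0.63, SE 0.07, edgeR adjusted p = 2.7e-06). LGMN, the protease that matures cathepsins, was at 77.2, 72.1 and 78.1 CPM in si-CHAF1A, against 52.5, 53.0 and 51.5 CPM in si-Ctrl (0.53, SE 0.07, adjusted p = 2.0e-05). PLA2G15, a lysosomal phospholipase, had 0.58 (SE 0.10, adjusted p = 0.000229). The lowered genes were SMPD1 (-0.23, adjusted p = 0.0315) and GLA (-0.21, adjusted p = 0.0427), named after their values were seen. Both calls were lost without si-CHAF1A 2 or si-CHAF1A 3 (adjusted p of SMPD1 up to 0.145). Over the whole list, the count of lower hydrolases was 0 without si-CHAF1A 3, 1 under DESeq2 or without si-CHAF1A 1, si-CHAF1A 2, si-Ctrl 1 or si-Ctrl 3, and 3 without si-Ctrl 2. The count of higher hydrolases was 10 without si-CHAF1A 1 and 21 without si-Ctrl 2.

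Of 22 tested membrane proteins and transporters of the lysosome, 6 rose (27.3%) and 2 fell (9.09%), with a median of 0.02. SCARB2, the receptor that carries glucocerebrosidase to the lysosome, fell to 87.2, 83.8 and 81.5 CPM in si-CHAF1A, against 155, 139 and 159 CPM in si-Ctrl (-0.84, SE 0.07, edgeR adjusted p = 2.2e-07). CLCN7, a chloride-proton exchanger, had 0.48 (SE 0.08, adjusted p = 0.000360), and SLC17A5, the sialic acid exporter, had 0.43 (SE 0.07, adjusted p = 0.000252). The count of higher membrane genes was 3 without si-CHAF1A 1, si-Ctrl 1 or si-Ctrl 3. The count of lower ones was 4 without si-Ctrl 2, without si-Ctrl 3 or without the filter on low counts. A further list held 14 V-ATPase genes outside the name rule, partners of the pump and the a isoform TCIRG1. Of these, 2 rose (TMEM9 at 0.33 and TBC1D24 at 0.34) and 1 fell (OXR1 at -0.30), with a median of 0.01. These shares, 14.3% and 7.14%, were below those of all tested genes. OXR1 was lost without si-CHAF1A 1 or si-Ctrl 3 and TBC1D24 without si-CHAF1A 1 (adjusted p up to 0.0643 and 0.0589), while 3 partners were called lower without si-Ctrl 2.

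Of the 10 tested genes that sort enzymes to the lysosome, 2 rose (20%) and 3 fell (30%). The mannose 6-phosphate receptors went opposite ways. M6PR, the small receptor, was at 102, 98.8 and 103 CPM in si-CHAF1A, against 142, 153 and 136 CPM in si-Ctrl (-0.51, SE 0.07, edgeR adjusted p = 2.4e-05). IGF2R, the large receptor, was at 1025, 1001 and 972 CPM in si-CHAF1A, against 722, 806 and 718 CPM in si-Ctrl (0.42, SE 0.06, adjusted p = 9.0e-05). GNPTAB, the enzyme that begins the mannose 6-phosphate tag, had 0.42 (SE 0.08, adjusted p = 0.000397). Of 5 tested cystatins, the inhibitors of cysteine cathepsins, CSTB was called lower (-0.30, SE 0.10, adjusted p = 0.0225) and 0 were higher. The call of CSTB was lost without any single si-CHAF1A library (adjusted p up to 0.0838), and its log2 fold change was -0.15 (adjusted p = 0.0173) without si-Ctrl 2.

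Among 23 MiT/TFE family members and nutrient regulators, 4 rose (17.4%) and 5 fell (21.7%), with a median of -0.04, and these shares were near the 18.5% and 19.3% of all tested genes. MITF, a further factor of the family, was at 24.7, 26.2 and 24.7 CPM in si-CHAF1A, against 39.0, 35.1 and 37.3 CPM in si-Ctrl (-0.56, SE 0.08, edgeR adjusted p = 8.4e-05), the opposite direction to TFEB. TFEC, the remaining factor of the family and named after its values were seen, rose at a low level. It was at 1.01, 2.81 and 2.52 CPM in si-CHAF1A, against 0.959, 0.505 and 0.573 CPM in si-Ctrl (1.66, SE 0.40, adjusted p = 0.00416). RHEB, which switches on the kinase mTORC1 at the lysosome, had -0.37 (SE 0.07, adjusted p = 0.000415), and PPP3CA, the catalytic subunit of calcineurin, which acts on TFEB, had -0.39 (SE 0.08, adjusted p = 0.00141). Of 20 autophagy genes 6 rose (30%) and 3 fell (15%), with a median of 0.11, against 18.5% and 19.3% of all tested genes. The count of higher autophagy genes was 9 without si-Ctrl 2 and 8 among protein-coding genes only. ULK1, the kinase that starts autophagy, had 0.73 (SE 0.10, adjusted p = 5.6e-05). The related phosphoinositide-binding proteins WIPI2 and WIPI1 went opposite ways, at 0.65 (SE 0.07, adjusted p = 2.2e-06) and -0.74 (SE 0.12, adjusted p = 0.000124).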

How the data were processed

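RNA of 6 RBE libraries was measured as gene-level read counts, deposited by the authors as unnormalised whole-number counts. Tools and build, per the submitters' processing notes, were fastp 0.20.1, HISAT2 2.1.0, SAMtools 1.9, featureCounts 2.0.1, StringTie 2.1.4 and hg38. The sources used here give no annotation release, strand setting or rule for multimapping reads, so reads of overlapping genes and near-identical copies are uncertain. Columns named NC and si with a number were read as si-Ctrl and si-CHAF1A; the CHAF1A level bears on this. There were 0 columns of other samples and 0 rows without a gene name.

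Symbols came from a gene name table (62665 of 63186 identifiers), and gene types, positions and lengths from GENCODE 29. edgeR 4.0.16 in R 4.3.3 (TMM, filterByExpr with a minimum count of 10 and total of 15, robust quasi-likelihood test, no covariate) was fitted to all 15911 kept genes, with Benjamini-Hochberg adjustment at 0.05. The fit was tested on simulated data first. CPM use TMM factors. TPM divide counts by the length of all coding-transcript exons in the GENCODE basic set. SE is the log2 fold change over the square root of F. Floors (3 counts) cover counting error only. Log2 count ratios of related genes were compared by exact two-sided permutation. The design text calls the samples biological replicates and says no more, so p-values measure the spread between these libraries.

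Members and lists were chosen with earlier results of these data known. Full values are given for called members whose groups do not overlap, for TFEB, TFE3, LAMP1 and LAMP2, and values for up to 3 genes of each other list by smallest p; others are given by value or range. Alternatives were DESeq2 1.42.0, RLE normalisation, no filter, protein-coding genes only, a replicate block and leaving out each library.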

Additional observations from a re-analysis of the deposited data

How the results depend on the processing

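Of the 19 called members, 11 were called in the same direction under every one of the 11 alternatives: ATP6V0D1, CTSB, CTSD, CTSF, CTSH and TFEB higher, and ATP6V1A, ATP6V1D, ATP6V1E1, ATP6V0A2 and ATP6V0E1 lower. The other 8 lost the call under at least 1. Members called lower numbered 9, and 5 to 9 with 1 library left out (5 without si-CHAF1A 3), and members called higher numbered 10, and 7 to 14 (14 without si-Ctrl 2). The counts over all genes moved as well, from 2944 higher and 3064 lower to 3519 and 3709 without si-Ctrl 2. Without any other single library they were 2346 to 2530 higher and 2358 to 2766 lower. The counts of classes and lists given above stand on the same background. DESeq2 called 9 members higher and 9 lower (2702 and 2827 of all genes), and RLE normalisation 10 and 9 (2967 and 3032). No filter gave 10 and 9 (3013 and 3127), and protein-coding genes only 10 and 9 (2840 and 2854).

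The replicate numbers do not pair the samples: same-numbered deviations had r of -0.086, -0.064 and -0.003. A replicate block gave 9 members higher and 6 lower (2675 and 2723 of all genes), and lost ATP6V1B2 (adjusted p = 0.0537), ATP6V1G1 (0.0542), CTSC (0.0549) and CTSS (0.0928).

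Sign changes were limited to values near 0. With 1 library left out, the log2 fold change of ATP6V1C1 ran from -0.08 to 0.05, of ATP6V1C2 from -0.21 to 0.02, of LAMP2 from -0.04 to 0.09 and of TFE3 from -0.06 to 0.10, and the log2 ratio of ATP6V1C1 to ATP6V1C2 differed by -0.05 to 0.22. ATP6V1C1 was at -0.00 without the filter. The cause of these was not tested. With 3 libraries a group, exact tests could not pass 0.05, and 9 members had too few counts to test.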
